A study of Mus musculus with 2 samples.

Results

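Known markers of stem and progenitor cells of the intestinal crypt, Lgr5 left aside, were compared between pyloric stomach cells with high and low Lgr5 reporter signal. They were the 10 genes Smoc2, Cd44, Sox9, Ascl2, Ephb2, Ephb3, Prom1, Olfm4, Msi1 and Phlda1, taken by name from the array annotation, out of 27678 gene names on the array. Together they were represented by 19 probes on 37 spots of each array. The compared populations were GFPhigh and GFPlow cells, both sorted by fluorescence from trypsinized pylorus tissue of 20 mice. All mice carried the knock-in allele Lgr5-EGFP-ires-CreERT2, by which the Lgr5 promoter drives green fluorescent protein (GFP) and an inducible Cre, so the allele was common to both populations. The labels give no strain background, age, sex or inducing treatment. RNA of both populations was hybridised together on 2 Agilent two-colour arrays, and the dyes were exchanged: GFPhigh was labelled with Cy3 for array 1 and with Cy5 for array 2. The labels describe 1 RNA preparation per population, from the tissue of all mice together. The 2 arrays are therefore technical repeats of 1 replicate, differences carry no p-value, and the SD between arrays does not cover variation between mice.

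In the intestine, Lgr5-positive stem cells sit at the base of the crypt, where Wnt signals are strongest, and divide to feed the crypt with progenitors. Several of the genes followed here are Wnt targets or are enriched in these cells in the mouse small intestine. The pylorus also holds Lgr5-positive cells at the base of its glands, and the comparison shows how far the intestinal markers follow the Lgr5 reporter in that tissue.

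Cells of the sorted populations had the markers of gastric epithelium. All 6 epithelial markers (Epcam, Cdh1, Krt8, Krt18, Krt19 and Cldn18) and 9 of 10 gastric gland markers were measured, while the pyloric factor gene Pdx1 was not. Of 7 intestinal epithelium markers only Vil1 and Fabp2 were measured, and Cdx1, Cdx2, Muc2, Alpi and Sis were not. Of 5 Paneth cell markers only Spink4 was measured, and Lyz1 and Mmp7 were not. Markers of leukocytes (1 of 10 measured), endothelium (1 of 5) and fibroblasts and muscle (2 of 8) were mostly below the detection limit, Ptprc, Pecam1 and Pdgfra among them. Among the gastric and epithelial markers, genes of surface mucous cells were lower in GFPhigh, with Gkn2 at -3.24 ± 0.55, Tff1 at -3.20 ± 1.12 and Muc5ac at -2.33 ± 0.37 as mean log2 ratio of GFPhigh over GFPlow (SD over 2 arrays), and the keratin gene Krt19 was at -2.24 ± 0.04. The gland gene Pgc was higher in GFPhigh, at 3.22 ± 0.69, as was Gkn3, at 2.96 ± 1.51. The part of these shifts in the ratios of the crypt markers was not tested. As a check of the sort, Lgr5 itself had log2 ratios of GFPhigh over GFPlow of 2.33 (array 1) and 2.24 (array 2).

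Each array probe is an oligonucleotide of 60 bases, and the gene's value depends on which probe is read. The sequences below are the first 30 bases, as the array files give them, of every probe of the genes whose probes differed most and of Olfm4, the gene that was not measured. They are written in lower case with no part singled out. The positions are those of the whole probe in the mm9 build named by the file headers. No annotation of that build was used, so exons and untranslated regions are not assigned.
Smoc2 probe 1, chr17:14540516-14540575, plus strand: atgaacggctgactactcaagacagttcct
Smoc2 probe 2, chr17:14540647-14540706, plus strand: gatatttaaacggactgttgtgatctgtga
Cd44 probe 1, chr2:102652907-102652966, minus strand: cactgggatcttatcatcagataagcaggt
Cd44 probe 2, chr2:102651667-102651726, minus strand: gccaattgcttaggtatgtacaatgagttt
Cd44 probe 3, chr2:102674420-102674479, minus strand: tcatagtacaacccttcagcctactgcagc
Sox9 probe 1, chr11:112647008-112647067, plus strand: ttccaggagagagactttaagactttgtct
Sox9 probe 2, chr11:112648809-112648868, plus strand: ataaaaccttaaagcgttcttataatatgg
Sox9 probe 3, chr11:112644310-112645162, plus strand: actctgggcaagctctggaggctgctgaac
Olfm4 probe 1, chr14:80421539-80421598, plus strand: caaaacagaagagatcttttactattatga
Olfm4 probe 2, chr14:80421398-80421457, plus strand: cactggtaacatagtgattagtaaactcaa

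Within a gene the probes are numbered by brightness. The probes of Smoc2 lie within 190 bases of each other and those of Olfm4 within 200 bases, whereas those of Cd44 are spread over 22812 bases. Sox9 probe 3 covers 853 genomic positions with its 60 bases, so its genomic position has a gap.

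The crypt markers did not move as a unit. Smoc2, Cd44 and Sox9 were higher in GFPhigh by 2-fold or more on each array. Prom1 and Ephb3 were above 0 on both arrays but passed 2-fold on only 1 of them. Ascl2, Ephb2, Msi1 and Phlda1 had ratios no larger than the spread between arrays, and Olfm4 had no measurable level. A gene counted as measured when the brighter population was well above background, by the scanner software's own flag, on both arrays, and its brightest such probe stood for it. Of the 10 genes 9 were measured, of which 3 were 2-fold or more higher in GFPhigh on each array and 0 were lower by that much. Among all 7831 measured genes, 1.76% were higher and 2.69% lower in GFPhigh by this measure. At a limit of 1.5-fold, 4 of the 9 genes were higher (Prom1 in addition) and 0 lower, against 5.59% and 7.51% of all measured genes. The median log2 ratio was 0.77 over the 9 genes and -0.06 over all measured genes. Smoc2 was well above background in GFPlow on 1 array only, so it could be measured only with a higher value in GFPhigh. Among the 8 genes measured in both populations on both arrays, 2 (Cd44 and Sox9) passed 2-fold and the median was 0.64.

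These ratios are relative to the average gene. Loess normalization sets the average ratio to 0 at each signal level. The array median as centre replaced loess, so dye differences that change with signal level were not corrected. With it, 0 of the 9 passed 2-fold on both arrays and the median of all measured genes was -0.49. On array 2 only Smoc2 (0.77) and Cd44 (0.25) were then above 0, against 3.20 and 1.58 on array 1. Sox9 was at 1.72 on array 1 and -0.33 on array 2. With spike-in RNA as centre, only Smoc2 passed and the median of all measured genes was -0.81. The split over all genes was 138 higher and 211 lower as reported, 10 and 215 with the array median, and 23 and 1305 with spike-in RNA. Set against the median of all genes under the same centring, Smoc2 lay 2.55 above it as reported, 2.48 above with the array median and 2.52 above with spike-in RNA. For Cd44 these differences were 1.75, 1.40 and 1.73, and for Sox9 they were 1.42, 1.19 and 1.39. Phlda1 lay below the median of all genes by every one of these centrings, at -0.47, -0.60 and -0.50. The spike-in differences must nearly repeat those as reported, because this centring shifts every loess ratio of an array by the same amount. Only the set of measured genes changes, so they are no separate check.

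Smoc2, a secreted calcium-binding protein of the extracellular matrix, had the largest mean ratio of the group as processed here. Its normalized level, on a log2 intensity scale, was 10.01 and 9.49 in GFPhigh on arrays 1 and 2, against 7.09 and 7.43 in GFPlow. The levels did not overlap, but the share of all measured genes without overlap was not counted, here and below. Array 1 gave a log2 ratio of 2.93 and array 2 one of 2.06. They average 2.49 ± 0.61 (SD, n = 2 arrays here and below). GFPlow was not well above background on array 1, where it was labelled with Cy5, so only the 2.06 of array 2 compares 2 measured levels, and no fold is given for the mean. On array 2 alone Cd44, at 2.13, was above Smoc2 as processed here, but not when measured probes were averaged (1.47 against 2.06). Smoc2 probe 2 gave 0.87 on array 1 and 0.07 on array 2, but it was well above background in only 1 of 4 channels and was left out. In a bulk sample, more cells with Smoc2 and more Smoc2 RNA per cell cannot be told apart, and this holds for every gene below.

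**Figure D1:**
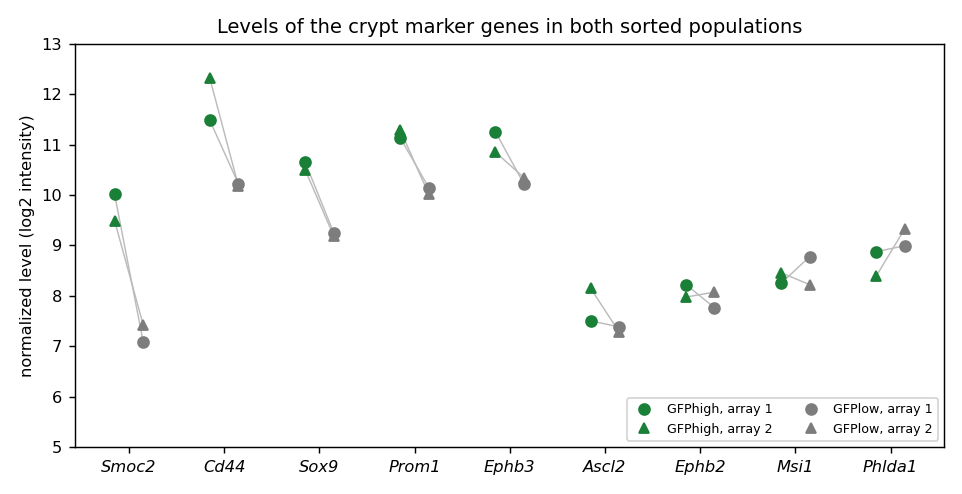
Normalized level (log2 intensity, vertical axis) of the brightest measured probe of 9 crypt marker genes in GFPhigh (green, left of each pair) and GFPlow (grey, right), with circles for array 1, triangles for array 2 and lines joining the populations of an array. The levels of Ephb2 and Msi1 overlapped between populations, those of Smoc2, Cd44, Sox9, Prom1, Ephb3 and Ascl2 lay higher in GFPhigh without overlap, and those of Phlda1 lay lower; levels of different genes come from different probes and are not comparable. The share of all measured genes without overlap was not counted, and Ascl2 and Phlda1 met this with ratios smaller than the SD over arrays.

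Cd44, the transmembrane receptor for hyaluronan and a Wnt target in crypts, was also higher in GFPhigh. Its probe 1 had levels of 11.48 and 12.32 in GFPhigh and of 10.22 and 10.18 in GFPlow. Array 1 gave 1.26 and array 2 gave 2.13 as log2 ratio, averaging 1.70 ± 0.62, or 3.24-fold, and the levels did not overlap. The 2-fold count of Cd44 depends on this probe. Probe 2, which was printed on 10 spots per array, gave 1.01 and 0.80, averaging 0.91 ± 0.15. Over those 10 spots the ratio ran between 0.75 and 1.25 on array 1, and 5 spots reached 2-fold. On array 2 it ran between 0.34 and 1.34, and 3 spots reached 2-fold. All 20 spots of probe 2 were thus on the GFPhigh side of 0, at a smaller ratio than that of probe 1. Probe 3 gave 0.49 and 0.24 and was well above background in 2 of 4 channels. Leukocytes also express Cd44. Of 10 leukocyte markers Fcer1g alone was measured, at -0.36 and 0.13, and the part of leukocytes in the Cd44 ratio was not tested.

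Prom1, which encodes the membrane-protrusion glycoprotein CD133, was close to the 2-fold limit on both of its probes. Probe 1 had levels of 11.14 and 11.29 in GFPhigh, against 10.14 and 10.01 in GFPlow. Array 1 gave 0.99 and array 2 gave 1.28 as log2 ratio, averaging 1.13 ± 0.20, or 2.20-fold. Probe 2 gave 1.19 and 0.72, with a mean of 0.96 ± 0.33. Each probe thus passed 2-fold on a different array. When measured probes were averaged, Prom1 was at 1.09 and 1.00 and passed on both arrays, which made 4 genes in place of 3.

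Ephb2 and Ephb3 encode receptor tyrosine kinases for ephrin-B ligands, which set the position of cells along the crypt axis. The Ephb3 levels were 11.26 and 10.85 in GFPhigh, against 10.22 and 10.35 in GFPlow. Array 1 gave 1.04 and array 2 gave 0.51 as log2 ratio, averaging 0.77 ± 0.38, so that it was higher in GFPhigh on both arrays and passed 2-fold on array 1. Ephb2 had levels of 8.22 and 7.97 in GFPhigh, against 7.76 and 8.07 in GFPlow, and the levels overlapped. Array 1 gave 0.46 and array 2 gave -0.10 as log2 ratio, averaging 0.18 ± 0.39. Its other probe, which spans 1398 genomic positions, was too dim to measure in all 4 channels. The difference between both receptors was not tested.

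Sox9, an HMG-box transcription factor of the crypt base and of Paneth cells, had the closest agreement between arrays. Probe 1 had levels of 10.66 and 10.51 in GFPhigh, against 9.26 and 9.19 in GFPlow. Array 1 gave 1.40 and array 2 gave 1.31 as log2 ratio, averaging 1.36 ± 0.06, or 2.56-fold. Probe 2, with 10 spots per array, gave 1.27 and 1.01, averaging 1.14 ± 0.18. This second probe therefore also passed 2-fold on both arrays. Over its 10 spots the ratio ran between 0.96 and 1.49 on array 1, with an SD of 0.20 and 9 spots past 2-fold. On array 2 it ran between 0.47 and 1.93, with an SD of 0.47 and 5 spots past 2-fold. Probe 3 gave 0.53 and 0.22 and was well above background in 2 of 4 channels.

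The repeated spots show the error of a single spot. The SD between identical spots of Cd44 and Sox9 was 0.19 and 0.20 on array 1, and 0.35 and 0.47 on array 2. Those spots belong to probe 2 of each gene, and the value given for each of the 9 measured genes rests on a probe with 1 spot per array. On array 1 the distances of Prom1 (0.99) and Ephb3 (1.04) from the 2-fold limit were smaller than any of these SDs. On array 2 Ascl2 (0.87), Phlda1 (-0.94), Prom1 (1.28) and Sox9 (1.31) lay closer to a 2-fold limit than the SDs of that array.

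**Figure D2:**
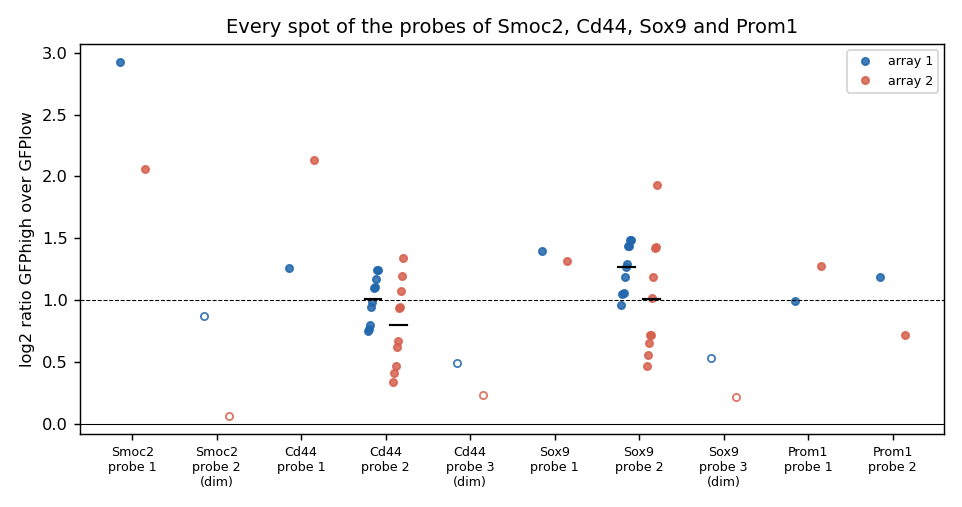
Log2 ratio of GFPhigh over GFPlow (vertical axis) of every spot of every probe of Smoc2, Cd44, Sox9 and Prom1, in blue for array 1 and red for array 2, with black bars for means over repeated spots, open points for probes left out as dim and a dashed line at 2-fold. Probe 1 of Cd44 lies at 1.26 and 2.13, above the means of 1.01 and 0.80 of its probe 2, while probes 1 and 2 of Sox9 both average above 2-fold on both arrays.

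Ascl2 is a basic helix-loop-helix transcription factor that sustains Lgr5-positive stem cells in the mouse intestine. Its levels were 7.50 and 8.15 in GFPhigh, against 7.38 and 7.28 in GFPlow. Array 1 gave 0.12 and array 2 gave 0.87 as log2 ratio, averaging 0.50 ± 0.53. The levels did not overlap, and Ascl2 was thus on the GFPhigh side on both arrays by an amount smaller than the spread between them.

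Olfm4, a secreted olfactomedin glycoprotein that marks stem cells of the small intestinal crypt, was not well above background in either population. This held for both of its probes in all 4 channels. The net intensity, the spot's mean less its local background, lay between 23.9 and 50.7 in GFPhigh and between 42.6 and 56.6 in GFPlow. No ratio can be given, and a low level of Olfm4 RNA below the detection limit of these probes would not have been seen.

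Msi1, an RNA-binding regulator of translation, differed in direction between arrays. Its levels were 8.25 and 8.46 in GFPhigh, against 8.78 and 8.22 in GFPlow. Array 1 gave -0.53 and array 2 gave 0.24 as log2 ratio, averaging -0.15 ± 0.55. A further Msi1 probe was too dim to measure in all 4 channels.

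Phlda1, a pleckstrin homology-like protein described as a stem cell marker in human intestine, was the only measured gene of the group below 0 on both arrays. Its levels were 8.88 and 8.40 in GFPhigh, against 8.99 and 9.33 in GFPlow. Array 1 gave -0.12 and array 2 gave -0.94 as log2 ratio, averaging -0.53 ± 0.58, and it did not reach 2-fold on either array. Its levels did not overlap.

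Of the 9 genes, 6 were above 0 on both arrays, against 28.1% of all measured genes, and 1 was below 0 on both, against 36.6%. The ratios on the arrays differed by up to 0.87 log2 among the 9 genes. Over all measured genes the SD of this difference was 0.57 and the median of its absolute value 0.38. All of the 9 genes except Sox9 and Prom1 differed by more than that median. Detection followed the dye. Of the 19 probes, 15 were well above background in Cy3 and 11 in Cy5 on array 1, and 14 in Cy3 and 12 in Cy5 on array 2. Over all gene probes the shares were 28.2% in Cy3 and 24.7% in Cy5 on array 1, and 31.2% and 18.3% on array 2. GFPhigh and GFPlow exchanged dyes between these arrays.

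**Figure D3:**
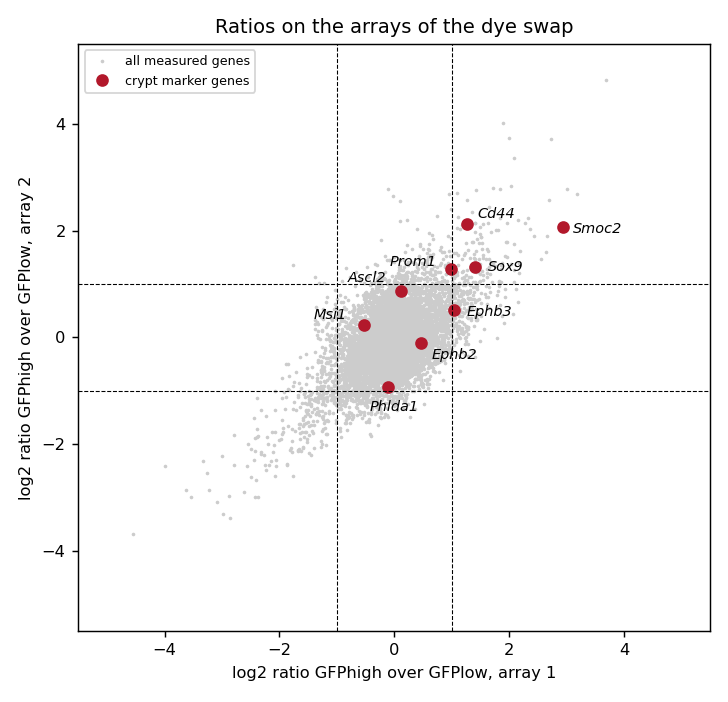
Log2 ratio of GFPhigh over GFPlow on array 1 (horizontal axis) and array 2 (vertical axis) for all 7831 measured genes (grey) and the 9 measured crypt marker genes (red), with dashed lines at 2-fold. Smoc2, Cd44 and Sox9 lie beyond 2-fold on both arrays, Prom1 at 0.99 and 1.28 lies on the line of array 1, and Msi1 and Ephb2 have opposite signs on the arrays.

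Further genes known from crypt stem cells were also mostly on the GFPhigh side. Of 15 such genes 9 were measured, 4 passed 2-fold towards GFPhigh on each array and 0 towards GFPlow, with a median log2 ratio of 1.22. The 4 were the potassium channel gene Kcnq1 (1.61 ± 0.35), the EGF receptor inhibitor gene Lrig1 (1.42 ± 0.34), the Wnt receptor ligase gene Rnf43 (1.32 ± 0.36) and the receptor gene Tnfrsf19 (1.16 ± 0.19). Slc12a2 was at 1.41 ± 0.73, Soat1 at 1.22 ± 0.87 and Hopx at 0.79 ± 0.55. Cdca7 was at -0.69 ± 0.08. Axin2, Znrf3, Rgmb, Aqp4, Bmi1 and Tert were not measured. Tnfrsf19 and Hopx were above background in GFPlow on 1 array only, so they could be measured only with a higher value in GFPhigh.

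Relatives and partners of the markers passed 2-fold in 1 case. Of 40 genes of the SPARC, hyaluronan, Sox, Ascl, Eph, ephrin, prominin, olfactomedin, Musashi and Phlda families, 14 were measured, with 0 higher in GFPhigh by 2-fold on each array and 1 lower. Their median was -0.25. The lower gene was the Eph receptor gene Epha2, at -1.13 ± 0.11. Its relative Epha1 was at -0.72 ± 0.49, and Efnb1, the only ephrin-B ligand gene measured, was at -0.40 ± 0.07. Phlda2 was at -0.90 ± 0.11, from array values of -0.98 and -0.83. The gene of the CD44 ligand osteopontin, Spp1, was at 1.70 ± 1.01, from array values of 0.99 and 2.41. Smoc1, the close relative of Smoc2, was at 0.26 ± 0.16. Of the 14 genes, 9 cleared the background in all 4 channels. The others passed through GFPlow alone.

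Of 12 Wnt target genes 6 were measured, with Nkd1 (2.20 ± 0.23) and Sp5 (1.78 ± 0.41) higher in GFPhigh by 2-fold on each array. Myc (-1.40 ± 0.23) was lower, but it cleared the background in GFPhigh on 1 array only and so could be measured only with a lower value there. The same holds for Sox4. Ccnd1, Ets2 and Sox4 lay between -0.02 and 0.03, and Axin2, Notum, Lef1, Tcf7, Apcdd1 and Wif1 were not measured. Genes of the early response to dissociation and growth factors, given because Phlda1 is also induced by such signals, did not differ by 2-fold on both arrays in any of 7 measured cases. Their median was 0.07, with Ier2 at 0.44 ± 0.27, Egr1 at -0.42 ± 0.24, Junb at 0.38 ± 0.89 and Dusp1 at 0.21 ± 0.15.

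Of 8 proliferation genes, 4 cleared the background in all 4 channels, and each was lower in GFPhigh by 2-fold or more on each array. Mki67 was at -2.28 ± 0.20, Birc5 at -2.26 ± 0.10, Mcm4 at -1.74 ± 0.04 and Pcna at -1.19 ± 0.15. The others passed through GFPlow alone and could be measured only with a lower value in GFPhigh. Of these, Ccnb1 (-1.55 ± 0.06) and Mcm2 (-0.84 ± 0.03) were well above background in GFPhigh on 1 array, and Cdk1 and Top2a on 0 arrays. The part of cell division in the ratios of the crypt markers was not tested.

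**Figure D4:**
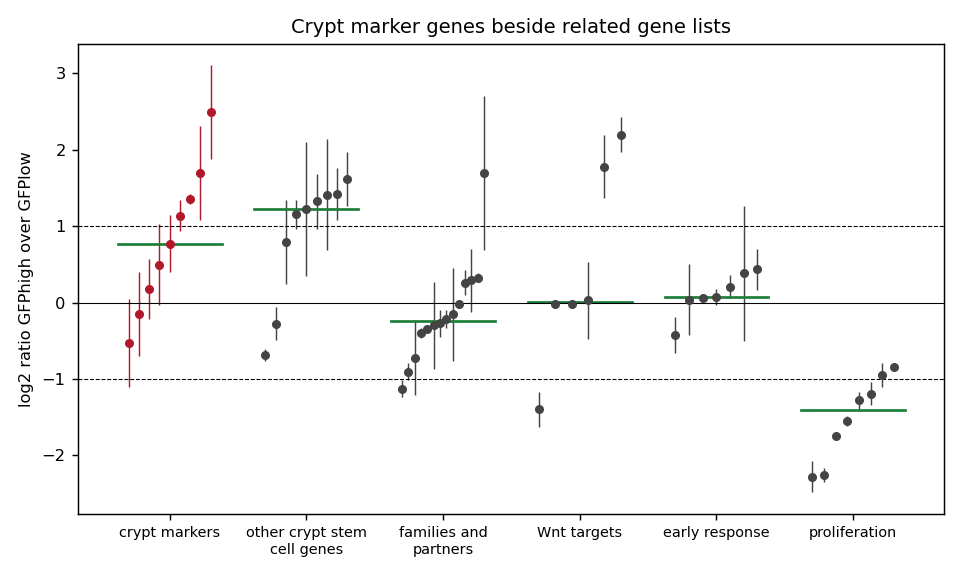
Mean log2 ratio of GFPhigh over GFPlow (vertical axis) of each measured gene of 6 lists, with error bars for the SD over 2 arrays, green bars for list medians and dashed lines at 2-fold; Sox4 appears in the families and in the Wnt targets. The medians are 0.77 for the crypt markers, 1.22 for the other crypt stem cell genes, -0.25 for families and partners and -1.41 for proliferation genes, and they include genes that cleared the background in 1 population only, such as Cdk1 and Top2a.

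**Figure D5:**
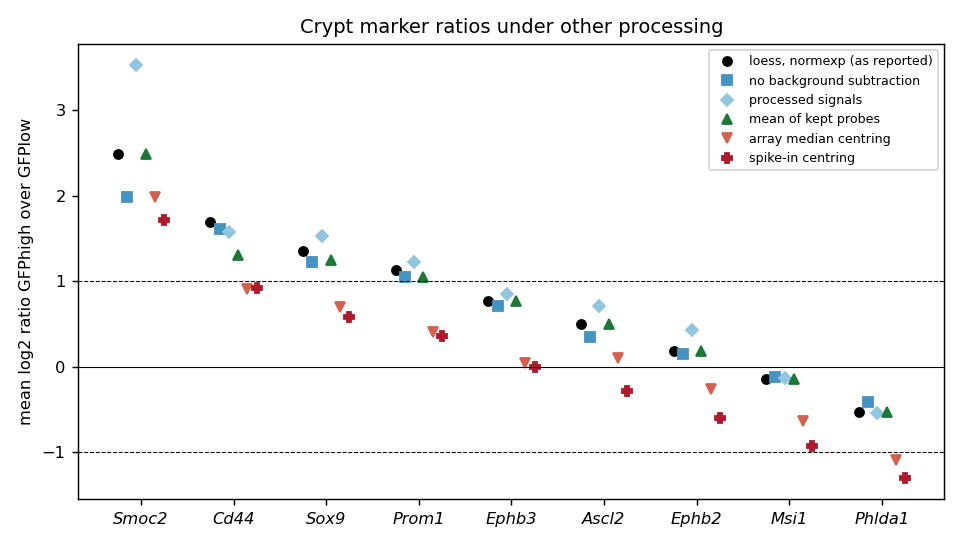
Mean log2 ratio of GFPhigh over GFPlow (vertical axis) of the 9 measured crypt marker genes under the reported processing (black) and 5 alternatives (no background subtraction, the scanner's processed signals, the mean of measured probes, array median centring and spike-in centring). In these 6 settings Smoc2 has the highest mean and Phlda1 the lowest, an order that single arrays do not always share. On array 1 Msi1 is lowest in each setting. On array 2 Cd44 is above Smoc2 as reported, without background subtraction and with spike-in centring. Smoc2 is highest on array 2 in the other settings. Centring on the array median or on spike-in RNA places the means of all 9 genes lower. With the array median, which replaces loess, all 9 rose on array 1 and fell on array 2. Only Smoc2 and Cd44 were then above 0 on array 2, and Sox9 was at -0.33.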

How the data were processed

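The authors deposited Agilent Feature Extraction output of 2 two-colour arrays (GFPhigh against GFPlow, dyes exchanged), and per the labels' protocols 150 ng of total RNA was labelled by linear amplification. Spot and local background intensities, and background-subtracted, dye-normalized processed intensities, are given per the file headers, which name Feature Extraction 10.5.1.1. Version 9.5.3 stands in the submitters' processing notes. The deposited log10 ratios of the value table matched the scanner's, turned to GFPhigh over GFPlow, within 0.005. Their scale, centring and direction are therefore known (medians 0.0188 and -0.0458). The value table was empty for 22558 (array 1) and 24241 (array 2) of 45018 spots, so the match and the medians cover the other spots.

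The R package limma (3.58.1, R 4.3.3) corrected mean intensities for background by normexp with an offset of 50, then applied loess within each array without control spots. This correction shrinks the log ratios of dim probes. Spots with outlier flags (240 and 251 gene spots) were left out, and 0 were saturated. Levels per channel were taken after Aquantile normalization. Spots of a probe were averaged, and a gene was represented by its brightest measured probe. Names of other genes came from a RefSeq table of GRCm38.p6, by accession for 25006 probes and by symbol for 6319 current and 1636 older ones. The array's name was kept for 8079. The number of arrays limits the precision, and the SD over arrays covers technical error only. The normalization was also run on simulated arrays in which equal numbers of probes changed in each direction. Such arrays cannot show whether the average gene was unchanged in the real ones.

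The members and lists were chosen with earlier results of these data known. Named were every member and, of each related list, every gene past 2-fold on both arrays and up to 4 others with the largest ratios. Smoc1 and the genes named with values from the cell type and proliferation lists were picked after their values were seen. The other cell type markers are given by counts, and 1 list is not reported here. Alternatives covered background correction, signals, centring, the dim-probe filter, the probe rule, the fold limit, the deposited table and single arrays.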

Additional observations from a re-analysis of the deposited data

How the results depend on the processing

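No member's mean ratio that passed 2-fold changed sign under any alternative. Over 89 member values under alternatives, 69 moved by less than the SD over arrays and 20 by more. Many of the 69 could not have moved further, so the count does not measure stability. A single array always lies within that SD of the mean. The dim-probe filters left the remaining values unchanged, as did averaging probes where a gene had a single measured probe. Ascl2, Ephb2, Ephb3 and Msi1, none of them past 2-fold, took both signs. Smoc2 ran from 1.71 to 3.53, Cd44 from 0.91 to 2.13 and Sox9 from 0.58 to 1.53. Array median centring was done without loess. With it 0 members passed, the member median was 0.10, the median of the other crypt genes 0.65, and 10 genes in all were higher. Sox9 then had a ratio of -0.33 on array 2, although its mean stayed above 0. With spike-in centring 1 member passed, the member median turned to -0.0059, the other crypt median was 0.44, and 23 genes were higher and 1305 lower. With the processed signals 352 genes were higher and 512 lower, with the deposited ratios 352 and 508, and the other crypt median was 1.54 in both. With no filter the member median was 0.64 over 10 genes and the other crypt median 0.35. With both populations above background the member median was 0.64 and 139 genes were lower. Each array alone gave member medians of 0.87 to 0.99, other crypt medians of 0.90 to 1.23, and 347 to 370 genes higher and 397 to 497 lower. At 1.5-fold 438 genes were higher and 588 lower, and at 3-fold 32 and 72, with 1 member. The cause was not tested for the centrings. Dim probes, among them those of Olfm4, have no measurable ratio. No paired analysis was possible because both arrays carry the same RNA pair and no test was made.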

Other observations

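RefSeq promoter windows of GRCm38.p6, from 250 bases before to 50 after a transcript start, were found for 6 of the 10 genes (Cd44, Ephb2, Prom1, Ascl2, Olfm4 and Ephb3) in 7 windows. The TCF/LEF core CTTTGAT, searched on both strands, was in 0 of the 7 windows and in 3.73% of all 32851 windows. The E-box CANNTG, which reads the same on both strands, was in 5 of 7 and in 72.3% of all windows. These are matches of letters in short windows and say nothing about binding.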
